A study of Homo sapiens with 10 samples.

Results

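The genes described here are 34 genes of the endoplasmic reticulum (ER) chaperone system and the unfolded protein response, chosen by a list of symbols from among 57736 gene IDs in the count table. All 34 were found in the table. Of these, 33 passed the filter on low counts and were among the 16760 genes tested. The remaining gene, DERL3 (a derlin of ER-associated degradation), had 4 and 3 counts in mutant knock-in samples, 6 and 5 in wild type knock-in, 2 and 2 in METTL3 knockout, 4 and 0 in senescent control and 5 and 4 in control samples, and was not tested.

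Proteins that are secreted or inserted into membranes enter the ER through the SEC61 channel, fold there with the help of chaperones and disulfide isomerases, and leave in COPII vesicles, while misfolded chains are pulled back and degraded. When unfolded protein accumulates, the sensors IRE1 (encoded by ERN1), PERK (EIF2AK3) and ATF6 start the unfolded protein response: IRE1 splices the RNA of the transcription factor XBP1, ATF6 is cut to release its own transcription factor part, and PERK phosphorylates the translation factor eIF2, which lowers protein synthesis and favours translation of ATF4. Fibroblasts are secretory cells that export collagen, and the senescent state is known for a large secretory output.

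RNA was sequenced in 5 groups, each with 2 samples, of IMR90, a fibroblast cell line established from human fetal lung. All cells first received a retrovirus, which was empty for the control group and carried RAS, an oncogene that drives fibroblasts into senescence, for the other groups. From day 4 they were transfected with siRNA, and the next day transfected again, with a lentivirus carrying the gene for the knock-ins; RNA was taken 48 hours later. The groups are senescent METTL3 knockout cells with a mutant METTL3 knock-in (mutant knock-in), the same with a wild type METTL3 knock-in (wild type knock-in), senescent cells with METTL3 knockout, senescent cells given a control knockout (called senescent control), and control cells that did not receive RAS. METTL3 carries the catalytic activity of the enzyme that writes the m6A methyl mark on RNA. The word knockout follows the sample titles, although the protocol describes siRNA. The column names carry siCTR for both control and senescent control samples, and siMETTL3 for the other groups. The protocol text names METTL14 and its R298P mutant, while titles and column names give METTL3; the identity of the METTL3 mutant is not stated in the sources used here. The column names of METTL3 knockout samples carry vec where those of the knock-ins carry WT or MT. Senescent control columns have no such tag. The meaning of vec is not spelled out in the sources used here. If it marks an empty vector, knock-in and METTL3 knockout cells are matched for lentivirus, but this could not be checked. A difference between a knock-in and senescent control cannot be told apart from an effect of lentivirus.

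Total counts ran from 16293975 to 23570266 per sample. METTL3 stood at 114107 to 147774 CPM (counts scaled to a common library total) in mutant knock-in, 58125 to 58385 in wild type knock-in, 23.2 to 28.9 in METTL3 knockout, 47.3 to 57.3 in senescent control and 72.7 to 81.4 in control samples. It alone took 11.3% and 14.2% of all counts in mutant knock-in samples, against 5.87% and 5.86% in wild type knock-in samples, so the mutant and wild type groups also differ in the amount of METTL3 RNA. HRAS, a RAS gene, had 23.7 to 29.8 CPM in mutant knock-in, 43.4 to 48.7 in wild type knock-in, 39.5 to 40.8 in METTL3 knockout, 61.0 to 61.3 in senescent control and 14.6 to 14.8 in control samples; which RAS gene the retrovirus carried is not stated, and the part of this difference in the results was not tested. All 8 fibroblast markers were found. Their summed level was 5108 to 5784 CPM in mutant knock-in, 7785 to 8273 in wild type knock-in and 9983 to 10556 in METTL3 knockout samples. It was 9487 to 10244 CPM in senescent control and 14541 to 17841 in control samples. Single markers did not all follow this sum. In METTL3 knockout VIM had 4655 and 4573 CPM, below the 5556 and 5686 of senescent control, and THY1 was lower too. COL1A2 had 2251 and 2535 CPM there, above the 1463 and 1710 of senescent control, and COL1A1, COL3A1 and DCN were higher too. PDGFRB overlapped between mutant (50.6 and 38.1 CPM) and wild type knock-in (41.1 and 45.3). LUM also ran in another order. It had 53.7 and 54.2 CPM in mutant and 77.8 and 73.4 in wild type knock-in, against 18.6 to 33.8 in the other groups. Of the leukocyte markers, CD3E was at 0 in every sample, while CD68 had 164 and 168 CPM in mutant knock-in and 152 and 160.3 CPM in wild type knock-in, against 65.6 to 77.0 CPM in the other groups. PTPRC had 2.92 and 5.89 CPM in mutant knock-in, 1.46 and 0.933 in wild type knock-in, 0.115 and 0.313 in METTL3 knockout and 0.494 and 0.548 in senescent control samples, and was at 0 in control samples, while LYZ lay between 0.832 and 3.78 CPM. Of 5 epithelial markers KRT5 and SFTPC were at 0 and EPCAM and CDH1 under 1 CPM in every sample, while KRT8 lay between 4.06 and 10.3 CPM, and the sum of the endothelial markers that could be matched did not exceed 4.43 CPM. The 2 control samples stood further apart than any other pair, with a chi-square statistic of 34.1 per gene between their counts, against 5.08 to 7.56 in the other groups.

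Promoter sequence was available for 30 of the 34 genes, as the 250 bases before the annotated transcription start (RefSeq, GRCh38.p14). Motifs known from the unfolded protein response were searched on both strands. They were chosen after the expression values had been seen, and no test was made of their number. Counts below are of genes, which can have several windows, while percentages are of all windows, those of these genes included. The ER stress element (ERSE, CCAAT and CCACG separated by 9 bases of any kind), the element bound by ATF6 and XBP1 together with NF-Y, matched in 7 of the 30 genes (HSPA5, HSP90B1, CALR, CANX, PDIA6, CRELD2 and XBP1), against 0.074% of 35116 windows of the same length. Its relative ERSE-II (ATTGG and CCACG separated by 1 base) matched in 3 (HYOU1, SDF2L1 and HERPUD1), against 0.0513% of windows. The unfolded protein response element (UPRE, TGACGTGG) matched in 1 (HYOU1, where it overlaps an ERSE-II), against 0.612%, and the element bound by ATF4 with CEBP factors (CARE, TGATGNAA) in 1 (HERPUD1), against 3.14%. The cyclic AMP response element (CRE, TGACGTCA) matched in 2 (CREB3L2 and PPP1R15A), against 1.65%. The 6 promoters printed here, 5′ to 3′ along the strand of the gene with matches in capitals, are of 4 chaperones with ERSE or ERSE-II letters and of the 2 genes with the largest differences below. The last base printed is the base before the start.
HSPA5 (chr9:125241344-125241593, minus strand): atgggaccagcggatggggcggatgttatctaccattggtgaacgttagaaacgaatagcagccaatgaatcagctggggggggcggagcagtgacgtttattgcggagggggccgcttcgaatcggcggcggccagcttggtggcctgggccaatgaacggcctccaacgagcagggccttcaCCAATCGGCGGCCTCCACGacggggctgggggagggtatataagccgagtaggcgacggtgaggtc
HSP90B1 (chr12:103930160-103930409, plus strand): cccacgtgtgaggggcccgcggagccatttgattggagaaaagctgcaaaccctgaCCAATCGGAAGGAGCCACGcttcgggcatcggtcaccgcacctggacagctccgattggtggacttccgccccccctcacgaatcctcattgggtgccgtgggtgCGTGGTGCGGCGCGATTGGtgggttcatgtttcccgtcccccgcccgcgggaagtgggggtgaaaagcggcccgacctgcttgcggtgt
CALR (chr19:12938359-12938608, plus strand): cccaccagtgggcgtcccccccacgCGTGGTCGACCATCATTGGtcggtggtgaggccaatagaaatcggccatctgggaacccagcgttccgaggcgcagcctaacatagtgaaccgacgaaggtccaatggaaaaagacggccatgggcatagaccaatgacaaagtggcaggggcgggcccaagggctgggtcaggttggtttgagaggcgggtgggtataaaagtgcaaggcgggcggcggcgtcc
HYOU1 (chr11:119057206-119057455, minus strand): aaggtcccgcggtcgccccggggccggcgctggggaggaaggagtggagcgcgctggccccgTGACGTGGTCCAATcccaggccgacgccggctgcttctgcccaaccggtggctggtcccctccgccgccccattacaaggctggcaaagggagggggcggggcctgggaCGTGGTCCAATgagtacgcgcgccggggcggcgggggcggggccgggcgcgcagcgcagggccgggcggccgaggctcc
ERN1 (chr17:64130145-64130394, minus strand): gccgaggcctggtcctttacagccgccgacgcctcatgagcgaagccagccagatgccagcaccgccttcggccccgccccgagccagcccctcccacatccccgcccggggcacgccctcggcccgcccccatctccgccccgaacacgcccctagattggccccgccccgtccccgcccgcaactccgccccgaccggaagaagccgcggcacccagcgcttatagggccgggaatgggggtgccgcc
PPP1R15A (chr19:48872171-48872420, plus strand): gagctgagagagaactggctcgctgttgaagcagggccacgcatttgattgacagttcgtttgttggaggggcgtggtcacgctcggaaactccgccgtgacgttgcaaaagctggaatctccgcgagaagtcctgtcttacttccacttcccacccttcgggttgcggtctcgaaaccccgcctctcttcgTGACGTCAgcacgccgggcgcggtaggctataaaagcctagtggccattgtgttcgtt
The ERSE of HSPA5 lies 66 to 48 bases before the start, those of HSP90B1 194 to 176 and 89 to 71 bases before it, and that of CALR 225 to 207 bases before it. HYOU1 has ERSE-II letters 185 to 175 and 79 to 69 bases before its start, and PPP1R15A has its CRE 58 to 51 bases before the start. ERN1 held none of these letters in this window.

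**Figure D1:**
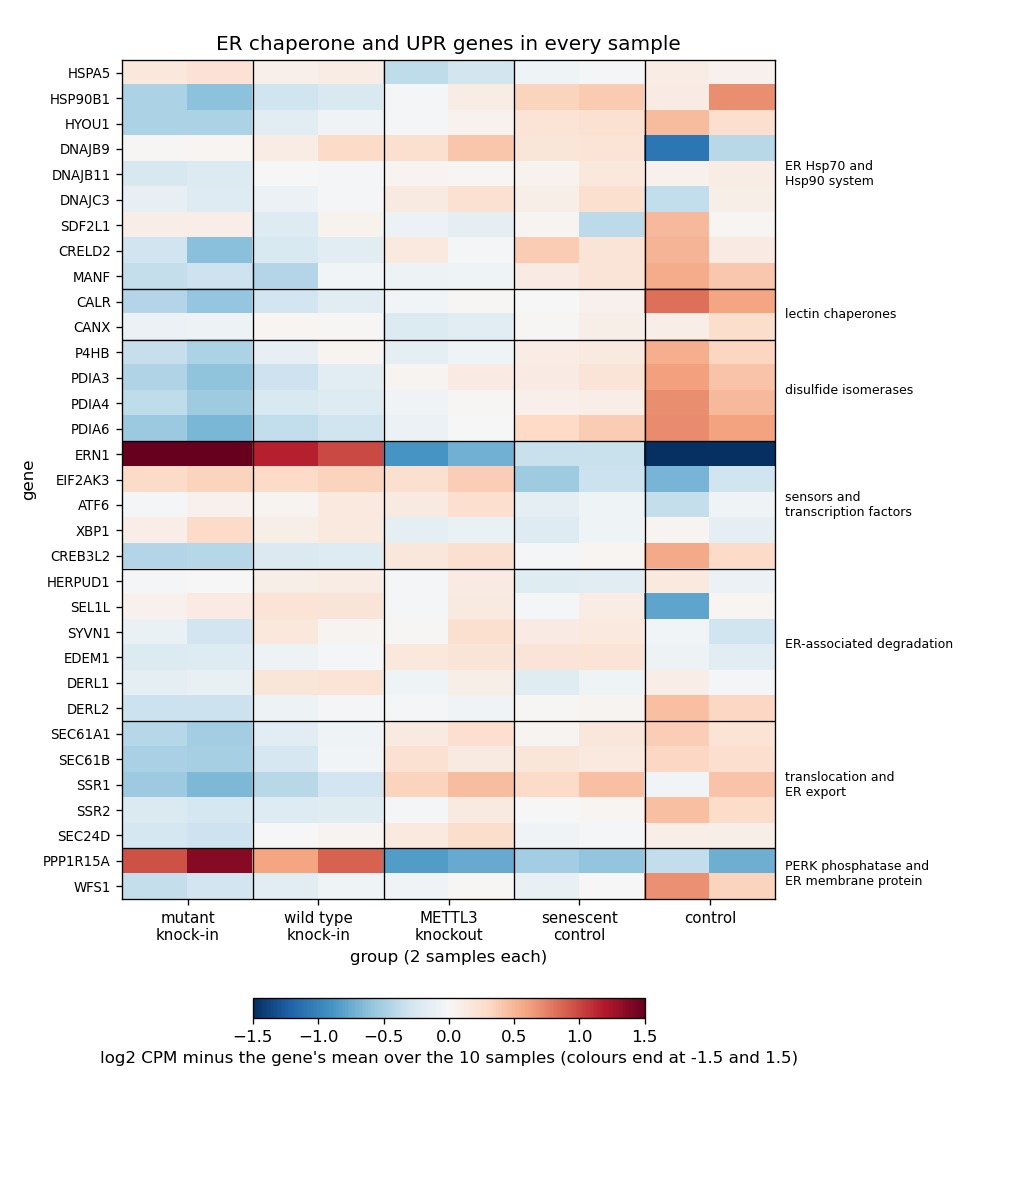
Expression of the 33 tested genes in each sample (columns, 2 per group), as log2 CPM minus the gene's mean over the 10 samples (colour), with genes ordered by role. ERN1 and PPP1R15A are above their means in the mutant and wild type knock-in samples, while HSP90B1, HYOU1, CALR, the 4 disulfide isomerases and the 5 genes of translocation and export are lowest in mutant knock-in samples; colours end at -1.5 and 1.5.

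The comparison of senescent control with control cells asks what RAS senescence does to these genes. ERN1 (ENSG00000178607), the gene of the sensor IRE1, and the co-chaperone DNAJB9 rose, while calreticulin and the disulfide isomerases among the listed genes fell. In all, 4 genes rose and 10 fell of 33 tested (42.4%), against 45.0% of all genes tested (19.7% higher and 25.3% lower), so the share of these genes was close to that of all genes. A gene is called higher or lower here where edgeR's quasi-likelihood test gave an adjusted p under 0.05 over all genes. The median log2 fold change was -0.13 over the 33 genes and -0.03 over all genes. In bulk RNA, fewer cells of a type and less RNA per cell cannot be told apart.

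ERN1 had 32.0 and 32.0 CPM in senescent control, against 13.2 and 12.9 CPM in control samples. Its log2 fold change was 1.29 (SE 0.12, adjusted p = 3.48e-06). DNAJB9, a J-domain partner of the ER Hsp70 known to act on IRE1, had 52.2 and 53.4 CPM in senescent control, against 21.8 and 34.7 CPM in control samples. The groups did not overlap for either gene, but the 2 control samples lay far apart for DNAJB9, whose log2 fold change was 0.90 (SE 0.17, adjusted p = 0.00156). EDEM1, which routes misfolded glycoproteins to degradation, rose by 0.31 (SE 0.08), and SYVN1, the ubiquitin ligase of the same pathway also called HRD1, by 0.29 (SE 0.11, adjusted p = 0.0499).

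Calreticulin (CALR), the soluble lectin chaperone of glycoproteins, had 765 and 803 CPM in senescent control, against 1353 and 1150.1 CPM in control samples. Its log2 fold change was -0.67 (SE 0.10, adjusted p = 0.000181), the lowest of the 33. All 4 disulfide isomerases among the listed genes, enzymes that form and rearrange disulfide bonds, fell. PDIA4 fell by 0.51, PDIA3 by 0.37, PDIA6 by 0.32 and P4HB by 0.32 on the log2 scale. PDIA5, a disulfide isomerase from a further list, rose, as given in the closing section. PDIA4 had 146 and 148 CPM in senescent control, against 224 and 193 CPM in control samples. WFS1, an ER membrane protein that guards calcium balance, fell by 0.57, the transcription factor CREB3L2 by 0.43, the translocon-associated SSR2 by 0.36, the derlin DERL2 by 0.35 and the secreted chaperone cofactor MANF by 0.32. The main ER Hsp70 HSPA5 (also called BiP) had 644 and 659.9 CPM in senescent control, against 732 and 709.6 CPM in control samples, a log2 fold change of -0.15 that did not pass the test. HSP90B1, the ER Hsp90, had 521 and 541 CPM in senescent control samples, which lie between the control values of 447 and 667 CPM.

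The calls of CALR, PDIA4, WFS1, ERN1, DNAJB9 and EDEM1 held under every alternative run. The number of genes that fell was 3 without senescent control replicate 1 and 4 without replicate 2, and without control replicate 2 the numbers were 9 higher and 14 lower, while without control replicate 1 they were 4 and 10.

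**Figure D2:**
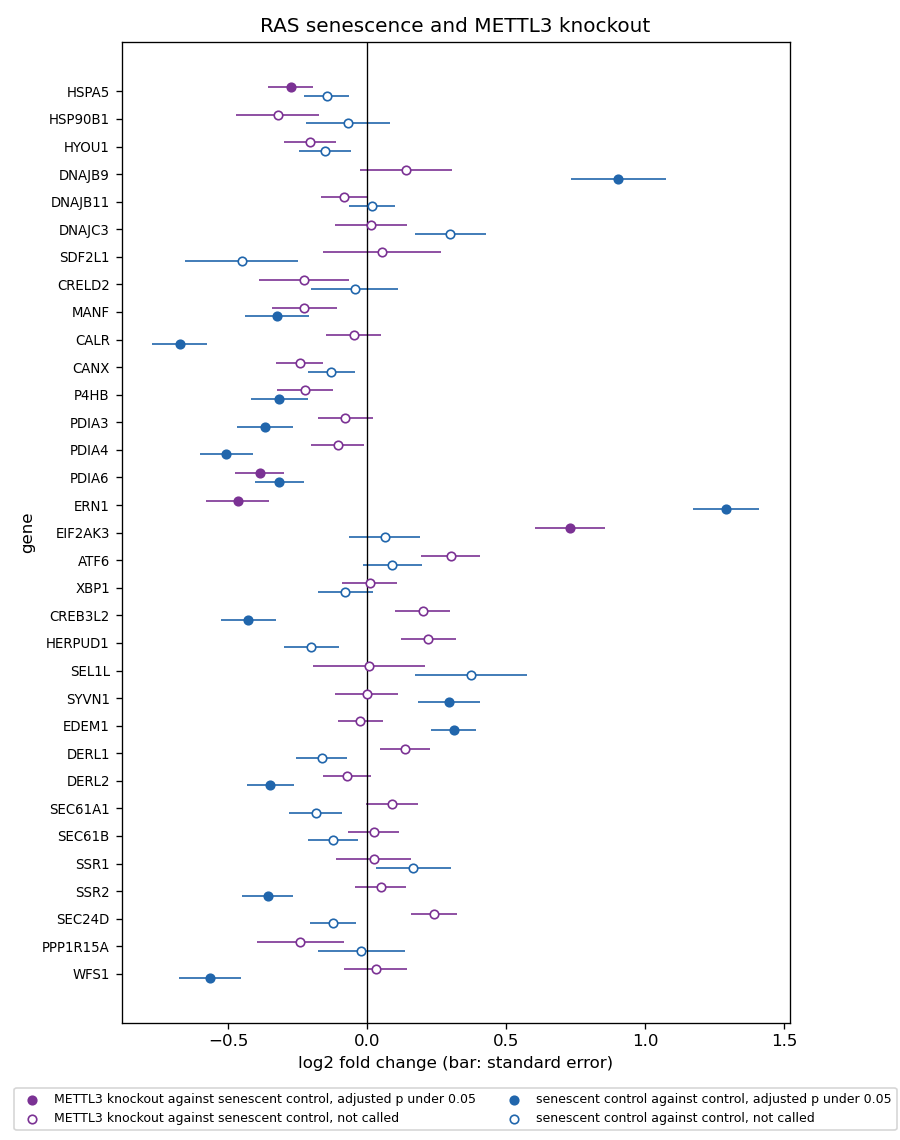
Log2 fold change (horizontal axis, bar is the standard error) of each gene in METTL3 knockout against senescent control and in senescent control against control; filled points have an adjusted p under 0.05. ERN1 lies at 1.29 in senescence and -0.47 in the knockout, and EIF2AK3 at 0.73 in the knockout.

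The comparison of METTL3 knockout with senescent control asks what differs between senescent cells with and without lowered METTL3. These groups also differ in the vec of their column names, and the part of that in the results was not tested. The PERK gene EIF2AK3 rose, and ERN1, PDIA6 and HSPA5 fell. These 4 of 33 (12.1%) stand against 15.8% of all genes tested (7.17% higher and 8.62% lower), and the median log2 fold change was -0.0015 over the 33 genes and 0.0062 over all genes. EIF2AK3 had 39.1 and 43.0 CPM in METTL3 knockout, against 23.0 and 26.5 CPM in senescent control samples. The groups did not overlap, and its log2 fold change was 0.73 (SE 0.13, adjusted p = 0.00176), a call that held under every alternative.

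ERN1 had 21.9 and 24.4 CPM in METTL3 knockout, against 32.0 and 32.0 CPM in senescent control samples, a log2 fold change of -0.47 (SE 0.11, adjusted p = 0.0154). HSPA5 had 520.0 and 557 CPM in METTL3 knockout, against 644 and 659.9 CPM in senescent control samples, a log2 fold change of -0.28 (SE 0.08, adjusted p = 0.0372). PDIA6 had 206 and 217 CPM in METTL3 knockout, against 269.6 and 284 CPM in senescent control samples, a log2 fold change of -0.39 (SE 0.09, adjusted p = 0.0106). In each of these genes both knockout samples were below both senescent control samples. The same held for genes that were not called, among them HSP90B1, HYOU1 and P4HB, so such separation adds no support. None of the 3 lower calls remained without senescent control replicate 1, senescent control replicate 2 or METTL3 knockout replicate 1, and only that of ERN1 remained without METTL3 knockout replicate 2. Without either control sample 5 genes were higher and 7 lower.

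The comparison of wild type knock-in with METTL3 knockout asks what the return of METTL3, here far above the level of control cells, does to the knockout cells. ERN1, PPP1R15A (GADD34, the subunit that directs a phosphatase to eIF2 and so reverses the action of PERK) and HSPA5 (ENSG00000044574) rose, and 6 genes of translocation, disulfide exchange and transcription fell. These 9 of 33 (27.3%) stand against 33.3% of all genes tested (18.5% higher and 14.8% lower). The median log2 fold change was -0.12 over the 33 genes and 0.02 over all genes.

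ERN1 had 90.6 and 80.2 CPM in wild type knock-in, against 21.9 and 24.4 CPM in METTL3 knockout samples, a 3.68-fold difference (log2 1.88, SE 0.11, adjusted p = 4.6e-07). PPP1R15A had 217 and 266 CPM in wild type knock-in, against 80.7 and 85.2 CPM in METTL3 knockout samples, a 2.91-fold difference (log2 1.54, SE 0.16, adjusted p = 3.83e-05). HSPA5 had 714 and 732 CPM in wild type knock-in, against 520.0 and 557 CPM in METTL3 knockout samples, a log2 fold change of 0.42 (SE 0.08, adjusted p = 0.00173). In all 3 genes both wild type knock-in samples were above both METTL3 knockout samples, and HSPA5 in wild type knock-in samples lay within the range of the control samples (732 and 709.6 CPM).

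SSR1, a subunit of the translocon-associated complex TRAP, had 243 and 265 CPM in wild type knock-in, against 409 and 445 CPM in METTL3 knockout samples, a log2 fold change of -0.75 (SE 0.14, adjusted p = 0.0014). CREB3L2, an ER-anchored transcription factor known for its part in collagen secretion through COPII genes, fell by 0.41 (SE 0.10). The channel subunits SEC61B and SEC61A1 fell by 0.33 and 0.31, and the disulfide isomerases PDIA3 and PDIA6 by 0.32 and 0.29. Other chaperones did not pass the test, among them HSP90B1 at 334 and 350.4 CPM in wild type knock-in and 406 and 443 CPM in METTL3 knockout samples. EIF2AK3 stayed at 40.5 and 42.0 CPM in wild type knock-in, against 39.1 and 43.0 CPM in METTL3 knockout samples, which overlap.

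The calls of ERN1, PPP1R15A, HSPA5, SSR1 and CREB3L2 held under every alternative. The number of genes that fell was 3 without METTL3 knockout replicate 1 or 2, 2 without wild type knock-in replicate 1, and 13 (with 5 higher) without either control sample.

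In mutant knock-in against METTL3 knockout cells, 24 of the 33 genes (72.7%) were called, against 48.4% of all genes tested. ERN1, PPP1R15A, HSPA5 and XBP1 rose, while 20 genes fell, among them all 4 disulfide isomerases, all 5 genes of translocation and ER export and 5 of the 9 genes of the Hsp70 and Hsp90 system. Of all genes tested, 24.1% were higher and 24.3% lower. The median log2 fold change was -0.31 over the 33 genes and 0.01 over all genes. The summed fibroblast markers were also lower in mutant knock-in than in METTL3 knockout cells. LUM among them was higher (53.7 and 54.2 CPM in mutant knock-in, against 29.1 and 33.8 CPM in METTL3 knockout samples). CD68 was higher too, with 164 and 168 CPM in mutant knock-in, against 77.0 and 75.9 CPM in METTL3 knockout samples. The part of these differences in the results was not tested.

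ERN1 had 119 and 143 CPM in mutant knock-in, against 21.9 and 24.4 CPM in METTL3 knockout samples, a 5.65-fold difference (log2 2.50, SE 0.11, adjusted p = 2.69e-08). PPP1R15A had 279 and 370.5 CPM in mutant knock-in, against 80.7 and 85.2 CPM in METTL3 knockout samples, a 3.91-fold difference (log2 1.97, SE 0.16, adjusted p = 3.9e-06). HSPA5 had 757 and 787 CPM in mutant knock-in, against 520.0 and 557 CPM in METTL3 knockout samples, a log2 fold change of 0.52 (SE 0.08, adjusted p = 0.000252). HSPA5 was the only one of the 9 genes of the Hsp70 and Hsp90 system that rose. XBP1 had 83.0 and 94.1 CPM in mutant knock-in, against 69.9 and 71.9 CPM in METTL3 knockout samples, a log2 fold change of 0.32 (SE 0.10, adjusted p = 0.0184). Counts per gene do not separate spliced from unspliced XBP1 RNA, so the activity of IRE1 was not measured.

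**Figure D3:**
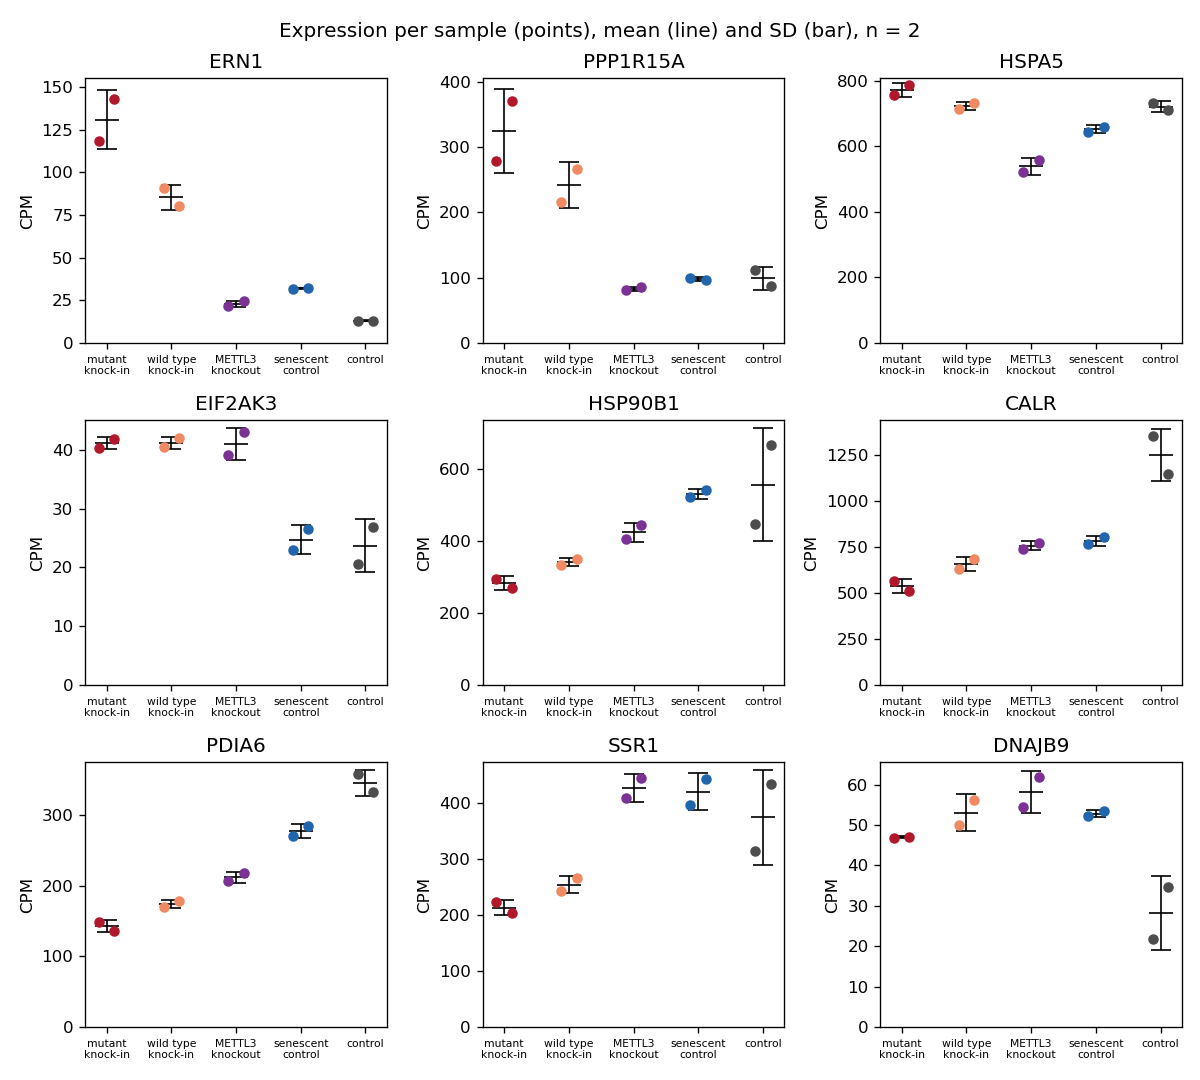
CPM (vertical axis, from 0) of 9 genes in each sample (points), with the mean (line) and SD (bar) of each group, n = 2. ERN1 and PPP1R15A are highest in mutant knock-in samples (119 and 143, and 279 and 370.5 CPM), while HSP90B1, CALR, PDIA6 and SSR1 are lowest there.

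The chaperones HSP90B1, CALR and HYOU1 went the other way. HSP90B1 had 296 and 268 CPM in mutant knock-in, against 406 and 443 CPM in METTL3 knockout samples, a log2 fold change of -0.59 (SE 0.15, adjusted p = 0.00773). CALR had 566 and 513 CPM in mutant knock-in, against 742 and 774 CPM in METTL3 knockout samples, a log2 fold change of -0.49 (SE 0.10, adjusted p = 0.00152). HYOU1, the large Hsp70 relative that exchanges nucleotide on HSPA5, had 73.7 and 73.5 CPM in mutant knock-in, against 100.1 and 106 CPM in METTL3 knockout samples, a log2 fold change of -0.49 (SE 0.10, adjusted p = 0.0012). The groups did not overlap in any of these genes. The cofactors CRELD2, DNAJC3 and DNAJB11 fell by 0.51, 0.34 and 0.25. The membrane lectin calnexin (CANX) had 1118 and 1131 CPM in mutant knock-in, against 1029 and 1064 CPM in METTL3 knockout samples, a log2 fold change of 0.10 that did not pass the test. HSPA5 and XBP1, which rose, HSP90B1, CALR, PDIA6 and CRELD2, which fell, and CANX, which was not called, all hold the ERSE letters. A link between these letters and expression was not tested.

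Among the disulfide isomerases, PDIA3, the partner of calreticulin and calnexin, had 183 and 164 CPM in mutant knock-in, against 255 and 272 CPM in METTL3 knockout samples, a log2 fold change of -0.61 (SE 0.10, adjusted p = 0.00038). PDIA6, known to bind IRE1, fell by 0.57, PDIA4 by 0.44 and P4HB, also a subunit of the collagen prolyl hydroxylase, by 0.31. In translocation, SSR1 had 223 and 203 CPM in mutant knock-in, against 409 and 445 CPM in METTL3 knockout samples; it fell by 1.00 on the log2 scale (SE 0.14, adjusted p = 0.000111), the largest fall among the 33. SEC61B and SEC61A1 fell by 0.68 and 0.66, SEC24D (a cargo-binding subunit of the COPII coat) by 0.49 and SSR2 by 0.30. Of the 6 tested genes of ER-associated degradation, EDEM1 fell by 0.37, SYVN1 by 0.32 and DERL2 by 0.28, while HERPUD1, SEL1L and DERL1 were not called. CREB3L2 fell by 0.64, and WFS1 by 0.30.

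The calls of 14 genes held under every alternative: ERN1, PPP1R15A and HSPA5 in the higher direction and CALR, HYOU1, PDIA3, PDIA4, PDIA6, CREB3L2, EDEM1, SEC61A1, SEC61B, SSR1 and SEC24D in the lower. The call of XBP1 was lost without METTL3 knockout replicate 1 or 2 or mutant knock-in replicate 2, and that of HSP90B1 without METTL3 knockout replicate 2 or mutant knock-in replicate 2; without METTL3 knockout replicate 2, 13 genes were lower.

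**Figure D4:**
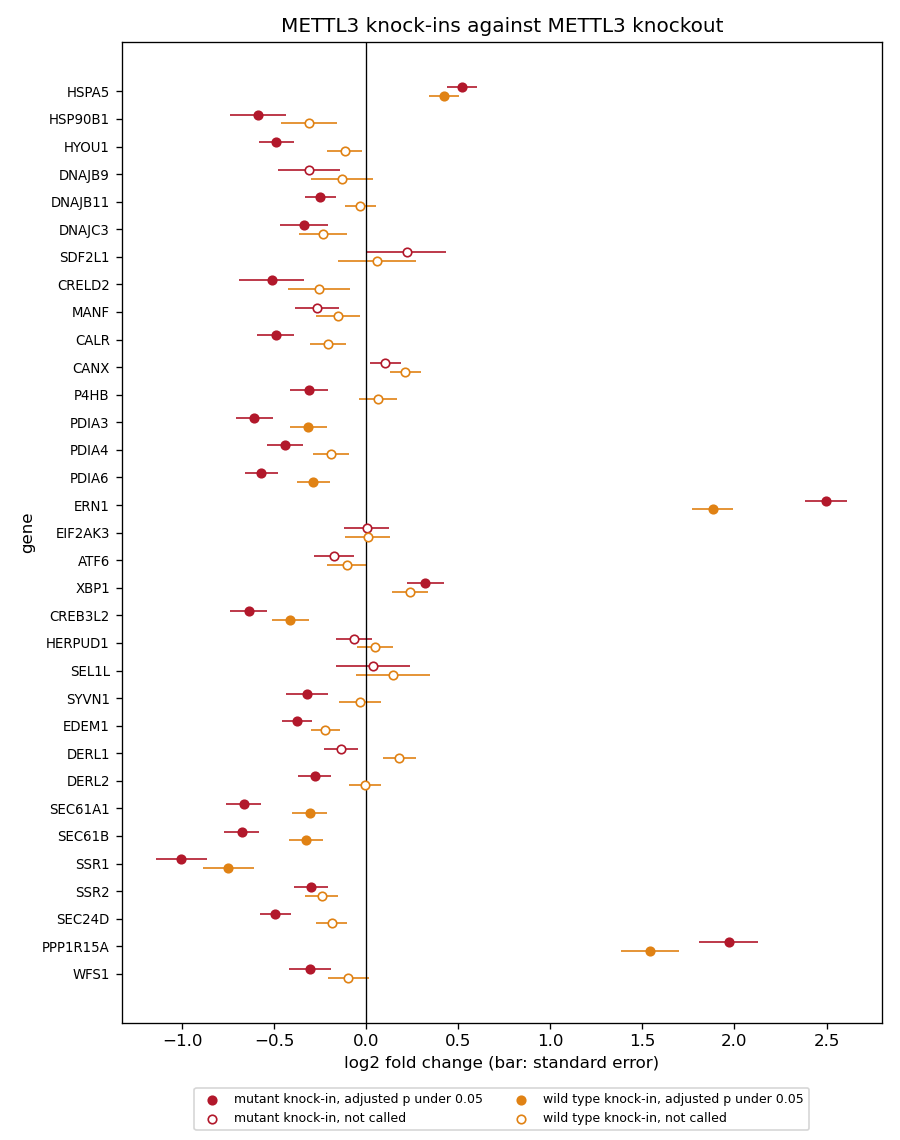
Log2 fold change (horizontal axis, bar is the standard error) of each gene in mutant knock-in and in wild type knock-in, both against METTL3 knockout; filled points have an adjusted p under 0.05. ERN1 (2.50 in mutant and 1.88 in wild type knock-in) and PPP1R15A (1.97 and 1.54) lie far to the right, and SSR1 is the lowest in both, where it fell by 1.00 in mutant and 0.75 in wild type knock-in.

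Both knock-in comparisons share the METTL3 knockout samples, so their difference was tested directly, mutant against wild type knock-in. ERN1 was higher, and HYOU1, P4HB, SEC61A1, SEC61B, DERL1 and SEC24D were lower in mutant knock-in cells. These 7 of 33 (21.2%) stand against 12.5% of all genes tested (5.16% higher and 7.39% lower), and the median log2 fold change was -0.22 over the 33 genes and -0.0026 over all genes. ERN1 had 119 and 143 CPM in mutant knock-in, against 90.6 and 80.2 CPM in wild type knock-in samples, a log2 fold change of 0.62 (SE 0.11, adjusted p = 0.00504). P4HB had 361 and 331 CPM in mutant knock-in, against 422 and 475 CPM in wild type knock-in samples, a log2 fold change of -0.37 (SE 0.10, adjusted p = 0.0334). SEC61A1 had 648 and 607 CPM in mutant knock-in, against 779.5 and 829 CPM in wild type knock-in samples, a log2 fold change of -0.36 (SE 0.09, adjusted p = 0.03). In all 3 genes the groups did not overlap.

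HYOU1 fell by 0.37, SEC61B by 0.35, DERL1, a derlin of the retrotranslocation channel, by 0.32 and SEC24D by 0.30. HSPA5, at 757 and 787 CPM in mutant knock-in and 714 and 732 CPM in wild type knock-in samples, had a log2 fold change of 0.09 (SE 0.08) that did not pass the test, and PPP1R15A had one of 0.43 (SE 0.15, adjusted p = 0.0929). No call of this comparison held under every alternative: that of ERN1 was lost without wild type knock-in replicate 2 or mutant knock-in replicate 2 (highest adjusted p = 0.0833). The 6 lower calls went to 3 without wild type knock-in replicate 1, to 0 without either senescent control sample, either METTL3 knockout sample, wild type knock-in replicate 2 or either mutant knock-in sample, and to 17 without either control sample.

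Set against senescent control cells, wild type knock-in cells had 5 genes higher and 10 lower of 33, with 39.9% of all genes tested called (20.8% higher and 19.1% lower), and mutant knock-in cells had 5 higher and 19 lower, with 53.3% of all genes called (27.0% higher and 26.3% lower). Both comparisons share the senescent control samples. EIF2AK3, which was not called between either knock-in and the knockout, was higher by 0.73 in mutant knock-in and by 0.74 in wild type knock-in cells than in senescent control cells. ERN1 was higher by 2.03 in mutant and 1.42 in wild type knock-in cells, and PPP1R15A by 1.73 and 1.30. PDIA6 was lower, with log2 fold changes of -0.96 in mutant and -0.67 in wild type knock-in cells, as was SSR1 with -0.98 and -0.72; the calls of these 5 genes held under every alternative in both comparisons. HSPA5 was higher than in senescent control by 0.24 in mutant knock-in cells. That call was lost without the filter on low counts. It was also lost without either senescent control, METTL3 knockout or mutant knock-in sample. In mutant knock-in against senescent control, 3 genes were higher without senescent control replicate 1 or mutant knock-in replicate 2. In wild type knock-in against senescent control, 3 were higher without senescent control replicate 1 or 2, wild type knock-in replicate 2 or mutant knock-in replicate 2; the lower calls numbered 4 and 3 without senescent control replicate 1 and 2, 2 without wild type knock-in replicate 1 and 16 without either control sample.

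Mutant knock-in against METTL3 knockout and senescent control against control share no samples. Of the 10 genes lower in senescent control than in control cells, 9 were also lower in mutant knock-in than in METTL3 knockout cells, which is 90.0% of the 10 and 45.0% of the 20 (CALR, CREB3L2, DERL2, P4HB, PDIA3, PDIA4, PDIA6, SSR2 and WFS1). This stands beside 20 of the 33 genes, and 24.3% of all genes tested, being lower in mutant knock-in cells. In wild type knock-in against METTL3 knockout 3 of the 10 were lower (30.0% of the 10, and 3 of the 6 lower there), and in mutant against wild type knock-in 1 was (P4HB). ERN1 alone was higher in senescent control and in each of these 3 comparisons. By group, PDIA6 was lowest in mutant knock-in (149 and 136 CPM), followed by wild type knock-in (169.6 and 178), METTL3 knockout (206 and 217), senescent control (269.6 and 284) and control samples (357 and 332), with no overlap between neighbours, although the step between mutant and wild type knock-in did not pass the test. ERN1 ran in another order, from control samples (13.2 and 12.9 CPM) through METTL3 knockout and senescent control to wild type and mutant knock-in samples.

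Of the 33 tested genes, 4 were called in none of the 7 comparisons: CANX, the sensor ATF6, SEL1L (the partner of SYVN1) and the co-chaperone SDF2L1. ATF6 had 115 and 122 CPM in mutant knock-in, 120.1 and 129 in wild type knock-in, 128 and 139 in METTL3 knockout, 106 and 111 in senescent control and 91.1 and 113 in control samples. SEL1L ran from 241 to 285 CPM in the 8 senescent samples and had 142 and 251 CPM in the control samples, which lay far apart. SDF2L1 was low in every sample, between 3.47 and 6.39 CPM.

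Other genes of the same pathways were described with further lists. The PERK and ATF4 branch, 17 genes of the transcription programme downstream of PERK, had 14 genes higher and 1 lower in mutant knock-in against METTL3 knockout (median log2 fold change 1.49), and 14 higher and 1 lower in wild type knock-in against METTL3 knockout (1.17), where 24.1% and 18.5% of all genes tested were higher. ATF3, a stress-induced transcription factor, had 67.8 and 81.5 CPM in mutant knock-in and 55.1 and 65.9 CPM in wild type knock-in, against 3.35 and 3.29 CPM in METTL3 knockout samples (log2 fold changes 4.49 and 4.19, SE 0.18 each, adjusted p = 1.25e-08 and 3.13e-08). TRIB3, a pseudokinase that restrains ATF4 output, had log2 fold changes of 3.08 in mutant and 2.54 in wild type knock-in cells. DDIT3, the transcription factor CHOP, had one of 2.27 in wild type knock-in cells. BCL2L11, the death-promoting BH3 protein BIM, had one of 2.40 (SE 0.26) in mutant knock-in cells. Its level was low, with 8.83 and 11.9 CPM in mutant knock-in, against 2.54 and 1.41 CPM in METTL3 knockout samples. The number of higher genes in this list was 14 under every alternative run in both comparisons. The lower count ranged from 0 to 1 in wild type knock-in over the alternatives, with 0 without METTL3 knockout replicate 1 or wild type knock-in replicate 1. Many of these genes are also known targets of ATF4 in amino acid shortage. In METTL3 knockout against senescent control, 1 gene of this list was higher and 5 were lower (median -0.29), with 7.17% of all genes tested higher and 8.62% lower. The transcription factor CEBPB fell by 0.83 (SE 0.13, adjusted p = 0.000762). NUPR1, a stress-induced chromatin protein, had 6.75 and 4.69 CPM in METTL3 knockout, against 2.74 and 3.15 CPM in senescent control samples, a log2 fold change of 0.94 (SE 0.19, adjusted p = 0.0051), a call that was lost without senescent control replicate 1 or METTL3 knockout replicate 1. Without METTL3 knockout replicate 1, 1 gene of the list was lower there, and 3 were lower without senescent control replicate 1, METTL3 knockout replicate 2 or any single knock-in sample.

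The COPII coat and ER export list, 22 genes, had 2 higher and 18 lower in mutant knock-in against METTL3 knockout (median -0.61) and 1 higher and 11 lower in wild type knock-in against METTL3 knockout (median -0.30), where 24.3% and 14.8% of all genes tested were lower. KDELR3, a receptor that returns escaped ER chaperones, had 74.7 and 61.8 CPM in mutant knock-in, against 164 and 178 CPM in METTL3 knockout samples (log2 fold change -1.32, SE 0.12, adjusted p = 3.63e-06). SAR1A, the GTPase that starts coat assembly, fell by 1.11 in mutant knock-in cells, and the cargo receptor TMED10 fell by 0.82 and KDELR2, a relative of KDELR3, by 0.73 in wild type knock-in cells. The lower count in wild type knock-in was 6 without METTL3 knockout replicate 2 and 5 without wild type knock-in replicate 1. The higher counts ranged from 1 to 2 in both comparisons, with 1 in mutant knock-in without METTL3 knockout replicate 1 or 2 or mutant knock-in replicate 2, and 2 in wild type knock-in without either control sample or mutant knock-in replicate 1.

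The list of translocon, signal peptidase and oligosaccharyltransferase genes, 30 in all, had 2 higher and 20 lower in mutant knock-in against METTL3 knockout (median -0.42) and 3 higher and 10 lower in wild type knock-in against METTL3 knockout (median -0.18), beside the same 24.3% and 14.8% of all genes lower. SSR3, another TRAP subunit beside SSR1 and SSR2, had 427 and 386 CPM in mutant knock-in and 435 and 503 CPM in wild type knock-in, against 972 and 1031 CPM in METTL3 knockout samples (log2 fold changes -1.30 and -1.09, SE 0.10 each). TRAM1, a translocating chain protein, fell by 1.10 and SEC61G, the small channel subunit, by 1.01 in mutant knock-in cells, and the signal peptidase subunit SPCS3 fell by 1.00 in wild type knock-in cells, where SEC11C, a catalytic subunit of the same enzyme, rose by 0.74. The lower count in wild type knock-in was 6 without METTL3 knockout replicate 2 or wild type knock-in replicate 1, and 16 without either control sample. The higher count in mutant knock-in was 1 without METTL3 knockout replicate 1 or 2 and 0 without mutant knock-in replicate 2, and that in wild type knock-in was 1 without METTL3 knockout replicate 1 or 2 or wild type knock-in replicate 2.

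**Figure D5:**
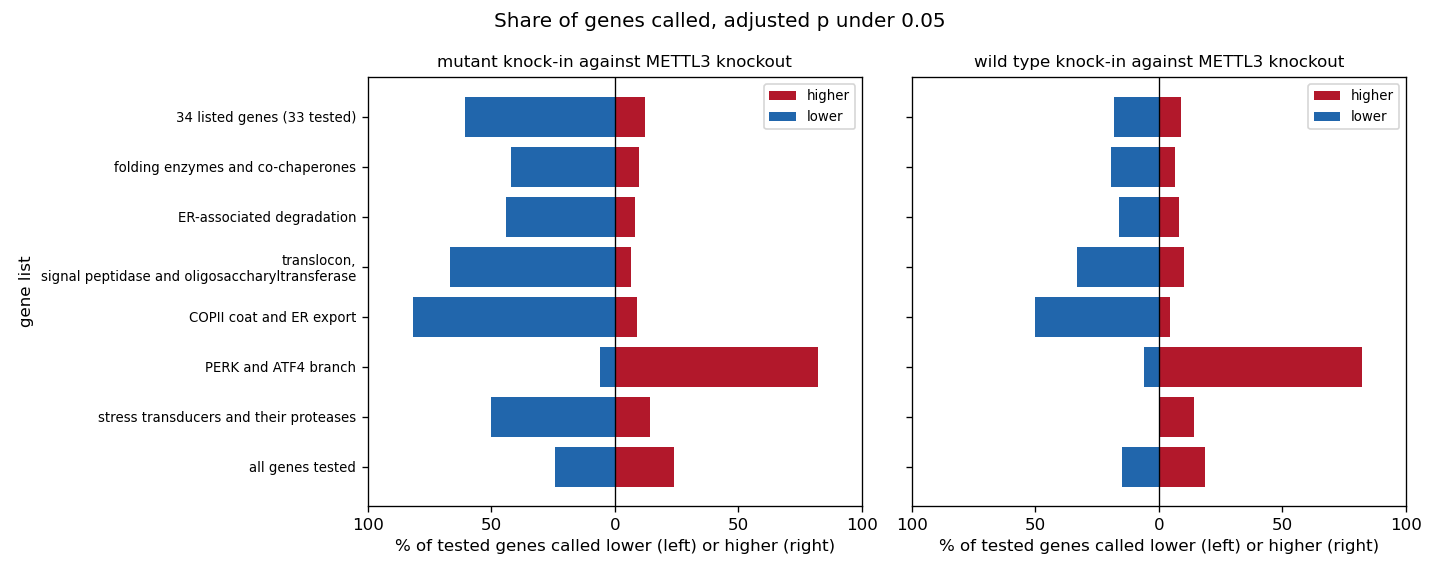
Share of tested genes called lower (bars to the left, %) or higher (bars to the right, %) in the 34 listed genes, in 6 further lists and in all genes tested, for mutant knock-in and for wild type knock-in against METTL3 knockout. The PERK and ATF4 branch has 14 of 17 genes higher in both panels, and the COPII list has 18 of 22 lower in mutant and 11 of 22 lower in wild type knock-in.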

How the data were processed

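Per the labels' protocols, DNase-treated total RNA was turned into libraries by a KAPA RNA HyperPrep kit. Bowtie2, RSEM 1.2.12 and hg19 are named in the submitters' processing notes. A single table of whole-number counts per gene was deposited; whether these are rounded RSEM estimates, and the annotation, strand setting and treatment of multi-mapping reads, are not stated in the sources used here, so reads of overlapping or antisense genes cannot be told apart. Of 57736 IDs, 39501 had a symbol.

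The deposited counts were fitted in R 4.3.3 with edgeR 4.0.16: filterByExpr with a minimum count of 10, TMM scaling, 1 coefficient per group over all 10 samples (5 residual degrees of freedom, common biological coefficient of variation 9.22%), and the two-sided robust quasi-likelihood F test, adjusted by Benjamini-Hochberg over 16760 genes and a threshold of 0.05. SE is the log2 fold change divided by the root of F. Where groups are said not to overlap, this describes the sample values and is no further test. CPM uses TMM-scaled totals; levels are not compared between genes, since lengths were not used. Steps were tested on simulated data. DESeq2 1.42.0 and 17 further alternatives, 1 of them (without the control group) added after seeing the data, are described in the closing section. Since the labels name no separate cultures behind the replicates, the spread that p-values rest on may be technical.

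The genes and lists were chosen with earlier results of these data known. All 34 genes are accounted for; from each further list at most 3 genes per comparison were eligible to be named, those with the largest called change whose samples do not overlap. Same-numbered replicates did not deviate together (correlations from -0.12 to 0.0608). Promoter sequences are from RefSeq. Of the leukocyte markers, 1 is not reported here.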

Additional observations from a re-analysis of the deposited data

How the results depend on the processing

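There were 18 alternatives: other scalings, no filter, DESeq2, only the groups compared, without the control group, a replicate block, and each sample left out. Across them, 49 of 97 calls of the listed genes held throughout and none changed direction. Of 120 results for genes eligible to be named from the further lists, 75 held and none changed direction. Only some of these 120 are named in the text. Counts over those further lists moved by more than 1.5 times in 365 of 1500 cases. The replicate numbers do not pair the samples by the data or the labels; the replicate block gave 2 genes higher in METTL3 knockout against senescent control and moved no other count of the listed genes by more than 1.5 times. Upper-quartile scaling gave 3 higher in METTL3 knockout against senescent control and 0 lower in mutant against wild type knock-in; under it the median of all genes in mutant knock-in against senescent control was 0.13, against 0.04 as reported. Of all genes tested, 1829 were still called in mutant against wild type knock-in under upper-quartile scaling, against 2103 as reported. Without the filter, 11 of the listed genes were lower and 2 higher in mutant against wild type knock-in, where 2969 of all genes were called. DESeq2 gave 2 higher there, with 1559 of all genes called. TMM without METTL3 moved no count of the listed genes by more than 1.5 times.

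With only the 2 groups compared in the fit, the counts were 3 lower in senescent control against control, 5 higher and 9 lower in METTL3 knockout against senescent control, 6 higher and 13 lower in wild type knock-in against METTL3 knockout, 15 lower in mutant against wild type knock-in and 9 higher in wild type knock-in against senescent control. Without the control group they were 5 higher and 7 lower in METTL3 knockout against senescent control, 6 higher and 13 lower in wild type knock-in against METTL3 knockout, 18 lower in mutant against wild type knock-in, and 8 higher and 16 lower in wild type knock-in against senescent control. Shares of all genes called in these fits, and in those with a sample left out, are not given here. The counts therefore do not show a change particular to the listed genes. The cause of these shifts was not tested.

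Leaving out each sample in turn, the counts ranged from 3 to 9 higher and 3 to 14 lower in senescent control against control, 1 to 5 higher and 0 to 7 lower in METTL3 knockout against senescent control, 3 to 5 higher and 2 to 13 lower in wild type knock-in against METTL3 knockout, 3 to 4 higher and 13 to 24 lower in mutant knock-in against METTL3 knockout, 0 to 1 higher and 0 to 17 lower in mutant against wild type knock-in, 3 to 7 higher and 2 to 16 lower in wild type knock-in against senescent control, and 3 to 5 higher and 15 to 23 lower in mutant knock-in against senescent control. Where a group keeps 1 sample, that sample is assumed to vary like the other groups. With 2 samples per group, a gene that was not called is not shown to be unchanged, since its difference could not be told from its spread.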

Other observations

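Among 31 further folding enzymes and co-chaperones, 3 were higher and 13 lower in mutant knock-in against METTL3 knockout (median log2 fold change -0.25), and 2 were higher and 6 lower in wild type knock-in against METTL3 knockout (median -0.14). These are 51.6% and 25.8% of the list, near or below the 48.4% and 33.3% of all genes called. SERP1, known to protect newly made membrane proteins, had 130.4 and 119 CPM in mutant knock-in and 130.0 and 143 CPM in wild type knock-in, against 231 and 243 CPM in METTL3 knockout samples (log2 fold changes -0.93 and -0.80, SE 0.10 each). TXNDC5, a disulfide isomerase, fell by 0.88 in mutant knock-in cells. In senescent control against control cells 9 of the 31 were higher and 7 lower (51.6%, near the 45.0% of all genes called); SERPINH1, the collagen chaperone HSP47, had 247 and 272 CPM in senescent control, against 527 and 452 CPM in control samples (log2 fold change -0.91, SE 0.10). The disulfide isomerase PDIA5 rose there by 0.72 (SE 0.12), with 28.4 and 31.3 CPM in senescent control, against 18.7 and 17.6 CPM in control samples. ERO1B, of the same list, rose by 0.85 (SE 0.16). The lower count in mutant knock-in was 7 without METTL3 knockout replicate 2 and 20 without either control sample. In wild type knock-in the 6 lower became 13 without either control sample, and the 2 higher became 1 without mutant knock-in replicate 1 and 0 without any other single sample of the METTL3 knockout, knock-in and senescent control groups. In senescent control the 9 higher became 4 without senescent control replicate 2, and the 7 lower became 4 without senescent control replicate 1.

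Among 25 further genes of ER-associated degradation, 2 were higher and 11 lower in mutant knock-in against METTL3 knockout (median -0.22), which is 52.0% of the list and near the 48.4% of all genes called; the 2 higher became 0 without METTL3 knockout replicate 1 or 2 and 1 without any single knock-in sample. UBE2J1, a ubiquitin-conjugating enzyme anchored in the ER membrane, had 46.7 and 45.0 CPM in mutant knock-in and 49.3 and 51.1 CPM in wild type knock-in, against 99.5 and 99.3 CPM in METTL3 knockout samples (log2 fold changes -1.12 and -0.99, SE 0.09 each). EDEM3, which like EDEM1 trims mannose from misfolded glycoproteins, had 206 and 221 CPM in senescent control, against 63.6 and 104.5 CPM in control samples (log2 fold change 1.34, SE 0.18). Of 14 tested stress transducers and their proteases, 2 were higher and 7 lower in mutant knock-in against METTL3 knockout (64.3%, against 48.4% of all genes), with 1 higher without any single METTL3 knockout or mutant knock-in sample. TRAF2, the adaptor that binds activated IRE1, had 6.68 and 7.09 CPM in mutant knock-in, against 2.60 and 3.18 CPM in METTL3 knockout samples (log2 fold change 1.25, SE 0.20). BAK1 and CREB3L1, of the same list, fell by 0.59 and 0.51 in mutant knock-in cells (SE 0.13 each). ATF6B, a relative of ATF6, had 85.5 and 88.9 CPM in wild type knock-in, against 58.9 and 62.0 CPM in METTL3 knockout samples (log2 fold change 0.53, SE 0.10). The calls of the genes named here held under every alternative.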
